A study of Mus musculus with 12 samples.

Results

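Natural killer (NK) cells of mice that received control IgG were sorted out of pancreatic tumours 21 days into the experiment, and their RNA was sequenced. The 3 IgG libraries were taken because the labels give their treatment as IgG, and they are 3 of the 12 libraries of the study. The study set them up as the reference for mice given the STING agonist cGAMP, an antibody that blocks interleukin 35 (IL-35), or the combination, with 3 libraries in each of its 4 groups. All groups carried the genotype label WT, bore the same kind of tumour and were sampled on day 21, and the treatment protocol names PBS as the injection given in place of cGAMP. The labels do not give the mouse strain, the age or sex of the mice, the tumour line or the gate of the sort, and they do not say that the 3 libraries came from separate animals. The SD printed beside a mean, always over n = 3 libraries, therefore measures how far these libraries differ, a spread that may be technical. No group was compared with another: the levels are a description of the fraction labelled as NK cells, and no test was run.

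NK cells are innate lymphocytes that kill infected, stressed or transformed cells without prior priming. They read target cells with germline-encoded receptors. In mice the inhibitory Ly49 receptors and the CD94-NKG2A pair bind MHC class I on healthy cells, while activating receptors such as NKp46, NKG2D and the activating Ly49s signal through small adaptor chains. When activating signals prevail, NK cells release perforin and granzymes from cytotoxic granules and secrete interferon gamma and chemokines. Their development rests on the transcription factors T-bet and Eomes and on interleukin 15.

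The counts assigned to genes were 14383401, 15846724 and 16305303 in replicates 1, 2 and 3. CPM are counts scaled to a common library total, and TPM divide the counts by exon length before the scaling, so that levels can be set side by side between genes. Of 27179 genes in the table, 17865 had a count in at least 1 library and 12348 (45.4%) reached 1 CPM in every library, the limit used below for calling a gene detected. At 10 CPM in every library there were 9016 genes (33.2%), at 100 CPM 2136 genes (7.86%) and at 1000 CPM 92 genes. The median level was 0.975 TPM over the 25434 genes with an exon length and 20.6 TPM over those of them that were detected. A gene with no count in any library is given as 0. At a summed depth of 46535428 counts, 3 counts correspond to 0.0645 CPM, the level that a count of 0 allows, counting error only.

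The label of the fraction was first held against 7 genes that mark NK cells. All 7 were present at over 100 CPM in every library, and they summed to 3275, 3236 and 3264 CPM in replicates 1, 2 and 3. Ncr1 encodes NKp46, the receptor most used to define mouse NK cells (gene 17086, chromosome 7, 4337715 to 4345184 in build mm10). It had 464, 436 and 445 CPM, and its 602 ± 17.1 TPM placed it at rank 209 by TPM. Prf1, the pore-forming protein perforin (gene 18646, chromosome 10, 61297751 to 61304684), had 684.5, 685.1 and 683 CPM and stood at 548 ± 1.99 TPM, rank 233. The 3 libraries were nearly equal for perforin and less so for NKp46, where replicate 1 was the high one.

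Gzmb, the protease granzyme B (gene 14939, chromosome 14, 56258836 to 56262334), had 332, 346 and 333 CPM, or 485 ± 12 TPM (rank 266). Klrb1c, which encodes the surface antigen NK1.1 (gene 17059, chromosome 6, 128778485 to 128788641), had 616, 605 and 609.8 CPM, or 479.6 ± 2.48 TPM (rank 270). Klrk1 encodes NKG2D, an activating receptor for stress-induced ligands (gene 27007, chromosome 6, 129610323 to 129623903). It had 593, 589.5 and 583 CPM, or 355 ± 2.29 TPM (rank 371). Tbx21 encodes T-bet (gene 57765, chromosome 11, 97098007 to 97115331) and had 313, 309 and 331 CPM, or 264 ± 10.0 TPM (rank 499). The lowest of the 7 was Eomes (gene 13813, chromosome 9, 118478186 to 118486132), with 273, 265 and 279 CPM, or 153 ± 3.77 TPM (rank 943). No library was the highest for all of these genes, and none of the 7 was missing from a library. Several of the 7 are not private to NK cells: perforin, granzyme B, NKG2D, T-bet and Eomes are also made by activated CD8 T cells.

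The most abundant transcripts were those of mitochondria, of immunoglobulin and of the common housekeeping machinery. The single most abundant gene, the mitochondrial COX1, a subunit of cytochrome c oxidase, took 2.11 ± 0.0162% of counts, the first 10 genes took 7.56 ± 0.0652% and the first 30 took 12.795 ± 0.0917%. The first 1000 genes held 53.4% of counts and the first 2000 held 67.6%. Of the 30 genes of highest mean CPM, 9 were mitochondrial, 3 were immunoglobulin constant regions, 2 encoded ribosomal proteins and 16 were others. Ranked by TPM the classes were 12, 2, 5 and 11, and 18 genes stood among the first 30 in both orders. Mitochondrial transcripts took 6.10 ± 0.107% of counts and ribosomal protein transcripts 6.04 ± 0.0353%.

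COX1 led with 21234, 21115 and 20914 CPM. Ighm, the constant region of IgM made by B cells (gene 16019, chromosome 12, 113418826 to 113422730), followed with 8213, 8135 and 8302 CPM. Igkc, the kappa light chain constant region (gene 16071, chromosome 6, 70726435 to 70726754), had 5747, 5423 and 5589 CPM. An antibody gene was thus the second most abundant transcript of a fraction labelled as NK cells, by CPM in the case of Ighm and by TPM in the case of Igkc, at 21716 ± 561 TPM. Between them in the order by CPM lay the elongation factor Eef1a1 (6430, 6449 and 6565 CPM), cytoplasmic actin Actb (6447, 6487 and 6458 CPM) and the mitochondrial genes COX2 and ATP6. COX3, CYTB, ND4, ND1, ND5 and ND2, further subunits of the respiratory chain, lay between ranks 8 and 24. Several of the other nuclear genes among the first 30 are expressed by all leukocytes or serve antigen presentation. Ptprc, the leukocyte antigen CD45, had 2404 ± 11.6 CPM, the MHC class I heavy chain H2-K1 had 3271 ± 29.4 CPM, H2-D1 had 2642 ± 43.5 CPM and their partner B2m had 2363 ± 58.4 CPM. Cd74, the invariant chain of MHC class II, had 4020, 3968 and 4109 CPM.

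The others in the first 30 were the lysosomal genes Psap, Laptm5 and Lyz2, the elongation factor Eef2, the ribosomal RNA precursor Rn45s, the IgA constant region Igha, the large cytoskeletal genes Ahnak, Myh9 and Flna, the ribosomal genes Rplp0 and Rpsa, and Gzma. Gzma, the protease granzyme A (gene 14938, chromosome 13, 113093824 to 113100981), was the only gene of NK effector function there, at rank 28 with 1973, 1965 and 1926 CPM. Per length it stood at rank 21 and the chemokine gene Ccl5 at rank 13.

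**Figure D1:**
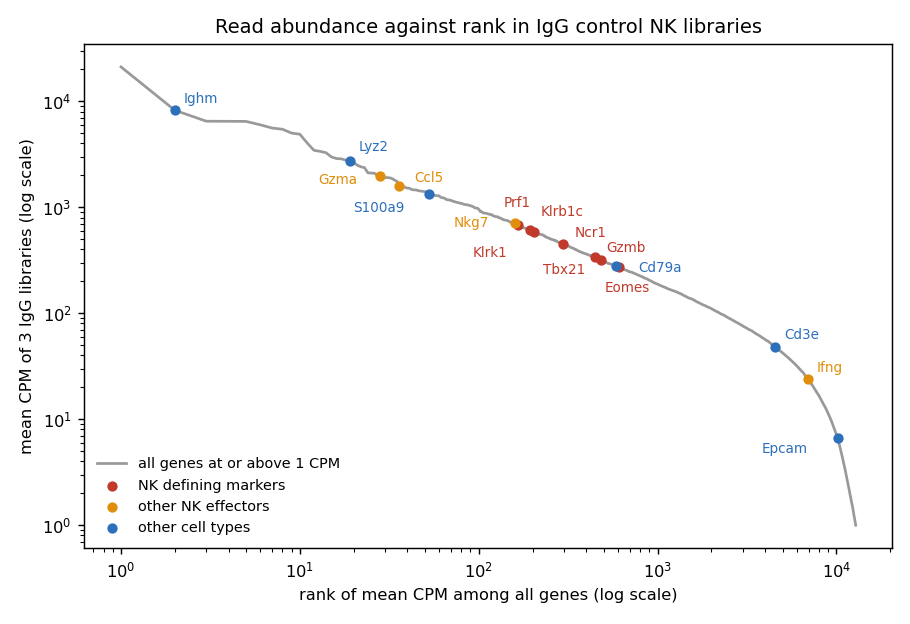
Mean CPM of the 3 IgG libraries (y axis, log scale) against its rank among all genes (x axis, log scale) for all genes whose mean reached 1 CPM, with NK markers in red, other NK effectors in orange and genes of other cell types in blue. The 7 NK markers lie between ranks 167 and 611, below Ighm at rank 2, Lyz2 at rank 19, Gzma at rank 28 and S100a9 at rank 53, while Cd3e, Ifng and Epcam lie lower on the curve.

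The Ly49 receptors, lectin-like proteins encoded side by side in the NK gene complex of chromosome 6, were led by an activating member. Of 11 Ly49 genes all 11 were detected, 8 reached 10 CPM and 4 reached 100 CPM in every library, and together they stood at 1729 ± 23.6 TPM with a median of 51.0 TPM. Klra8 encodes Ly49H, the activating receptor that binds the m157 protein of mouse cytomegalovirus, and it had 301, 301 and 286 CPM, or 519.6 ± 13.8 TPM. Klra4, the activating receptor Ly49D, had 198, 229.6 and 225 CPM, or 361 ± 29.4 TPM. Replicate 1 was the low one for Klra4 and the high one for Klra9.

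Klra9, the inhibitory Ly49I, had 199, 179 and 185.5 CPM, or 304 ± 15.8 TPM. Klra7, the inhibitory Ly49G2, had 166, 169.9 and 167 CPM, or 274 ± 3.89 TPM. Klra8 held 30.1 ± 0.752% of the TPM of the family, and these 4 genes held 84.4 ± 0.151%. The next were Klra3, the inhibitory Ly49C, at 114 ± 3.51 TPM, Klra1, the inhibitory Ly49A, at 51.0 ± 1.75 TPM and Klra2 at 36.6 ± 3.78 TPM. Klra10 and Klra6 differed by less than the SD of Klra10, at 25.7 ± 5.78 TPM and 25.05 ± 2.11 TPM. Klra5 (9.40 ± 3.21 TPM) and Klra17 (7.52 ± 2.15 TPM) closed the order, each with 1 library apart from the other 2. Annotated Ly49 pseudogenes drew reads too, with 109 ± 9.53 CPM at Klra13-ps and 84.4 ± 1.82 CPM at Klra14-ps.

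Ly49 genes resemble each other so closely that the split of reads between them is uncertain. The first 90 coding bases of the 4 leading members are shown for this reason, 5′ to 3′ on the minus strand of chromosome 6 in build mm10, from the GENCODE M21 transcripts, with capitals at the bases that differ from Klra8 at the same position:
Klra8: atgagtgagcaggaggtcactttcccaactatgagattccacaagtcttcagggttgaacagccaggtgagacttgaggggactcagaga
Klra4: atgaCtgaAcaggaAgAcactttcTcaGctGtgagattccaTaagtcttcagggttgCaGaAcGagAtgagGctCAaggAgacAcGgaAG
Klra9: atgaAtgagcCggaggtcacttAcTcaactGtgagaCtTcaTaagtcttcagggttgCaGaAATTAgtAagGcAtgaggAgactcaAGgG
Klra7: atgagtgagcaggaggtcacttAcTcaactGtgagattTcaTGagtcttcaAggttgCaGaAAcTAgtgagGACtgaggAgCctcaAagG
In this stretch Klra4 differed from Klra8 at 21 bases, Klra9 at 22 and Klra7 at 20, and runs of identical bases join the differences. Over the whole aligned coding sequence Klra8 and Klra9 were identical at 91.9% of bases, Klra4 and Klra7 at 84.3%, and Klra8 and Klra7 at 77.8%. Of all stretches of 50 bases in the Klra8 transcript, 33.1% occurred unchanged in a transcript of another gene, most often Klra14-ps. The same share was 32.4% for Klra9, 14.7% for Klra7 and 4.7% for Klra4. How the authors' counting treated reads that fit more than 1 gene is not stated in the labels or notes. The amylase copies Amy2a2, Amy2a3 and Amy2a4, with 100% of their 50-base stretches shared, each had 179 counts in replicate 1 and 142 in replicate 2. If reads were counted in full at every copy, sums over similar genes, such as the Ly49 total, would hold repeat counts. That was not tested.

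The NKG2, CD94 and NKR-P1 receptors, the other lectin-like family of the complex, were present with nearly every member. Of 15 genes 14 were detected, 13 reached 10 CPM and 8 reached 100 CPM in every library, and their median was 116 TPM. Besides Klrb1c and Klrk1, the leading gene was Klrd1, which encodes CD94, the common partner of the NKG2 chains, at 213, 214 and 227 CPM, or 466 ± 17.0 TPM. Klrc1, the inhibitory chain NKG2A, stood at 140.2 ± 1.88 TPM, above the other NKG2 chains Klrc3 (NKG2E, 85.6 ± 6.45 TPM) and Klrc2 (NKG2C, activating, 68.9 ± 4.42 TPM). These 3 chains shared 38.9% to 41.1% of their 50-base stretches with other genes, so their order is uncertain. The share was 29.7% for Klrb1c and 29.0% for Klrb1b, so their levels are uncertain too.

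Klre1, a lectin-like receptor that pairs with KLRI1 or KLRI2, stood at 344 ± 9.55 TPM, Klri2 at 168 ± 4.91 TPM and Klri1 at 33.7 ± 5.12 TPM. Klrb1a (NKR-P1A) had 125 ± 13.5 TPM, Klrb1b, the inhibitory receptor NKR-P1B, 108 ± 7.71 TPM and Klrb1f (NKR-P1F) 96.5 ± 5.84 TPM. Klrg1, an inhibitory receptor for cadherins that marks mature NK cells, had 116 ± 6.32 TPM. Klrb1a, Klrg1 and Klrb1b are neighbours in this order whose levels did not differ beyond their spread. Klrb1 was low at 15.8 ± 5.13 TPM, and Klrh1 had 4 counts in replicate 1 and none in the others.

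**Figure D2:**
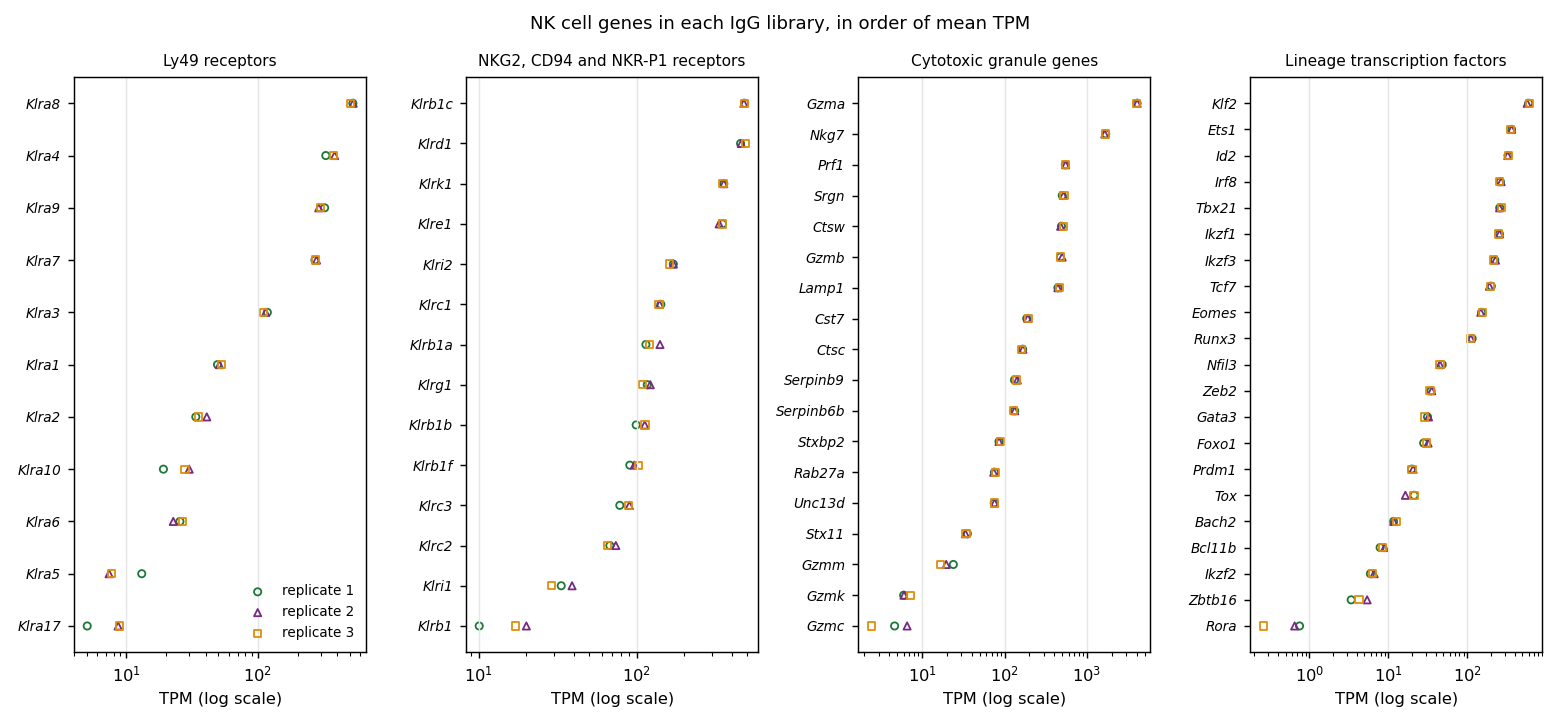
TPM (x axis, log scale) of each gene of 4 NK cell families (y axis, in order of mean TPM) in replicate 1 (circles), replicate 2 (triangles) and replicate 3 (squares) of the IgG libraries, for genes whose mean reached 1 CPM. Points of the leading genes, such as Klra8, Klrb1c, Gzma and Klf2, lie nearly on top of each other, while those of low genes such as Klra17, Klrb1, Gzmc and Rora spread apart.

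Activating and co-stimulatory receptors outside the lectin families were all detected, 14 of 14 genes at 10 CPM or more and 8 at 100 CPM or more in every library, with a median of 77.9 TPM. Cd7, an early lymphoid surface protein, led with 626 ± 13.7 TPM, a level that did not differ from that of Ncr1 beyond their summed SDs. Cd2, an adhesion receptor, followed at 295 ± 25.5 TPM, its ligand Cd48 at 279 ± 1.21 TPM and Fcgr3, the Fc receptor CD16 through which NK cells read antibody-coated targets, at 274 ± 11.3 TPM. Ly9 (140.4 ± 2.41 TPM), Cd244a (the receptor 2B4, 95.4 ± 5.15 TPM), Slamf7 (60.5 ± 3.72 TPM) and Slamf6 (5.48 ± 0.896 TPM) are members of the SLAM family. Cd160 stood at 53.7 ± 1.58 TPM, Tnfrsf9, the co-stimulatory receptor 4-1BB, at 48.7 ± 0.491 TPM, and Cd226, the nectin-binding receptor DNAM-1, at 18.9 ± 1.84 TPM. Cd28, a co-stimulatory receptor of T cells, had 24.0 ± 0.690 TPM and Crtam 15 ± 1.71 TPM. Fcgr3 is also made by macrophages and neutrophils and Cd48 by most leukocytes, and the values of those cells' markers are given with the other cell types.

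The adaptor chains that carry the signals of these receptors were among the more abundant NK-related transcripts. Of 17 genes 16 were detected and 11 reached 100 CPM in every library, with a median of 141 TPM. Tyrobp, the chain DAP12 used by activating Ly49s and CD94-NKG2C, had 583, 579.7 and 591 CPM, or 2144 ± 23.9 TPM (rank 56). Fcer1g, the Fc receptor gamma chain used by CD16 and NKp46, had 518, 499 and 477 CPM, or 1377 ± 53.0 TPM (rank 101). Both are expressed by myeloid cells as well. Hcst, the chain DAP10 of NKG2D, stood at 265 ± 4.44 TPM, and Cd247, the zeta chain, at 48.0 ± 1.48 TPM, with 84.0% of its 50-base stretches shared with other annotated transcripts.

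The kinases of these pathways were all present: Lck at 325 ± 11.8 TPM, Fyn at 236 ± 6.47 TPM, Syk at 209.6 ± 4.68 TPM and Zap70 at 141 ± 6.36 TPM. Syk is also the kinase of B cells and myeloid cells, and Lck and Zap70 are shared with T cells. Vav1 (169 ± 4.73 TPM), Plcg2 (162 ± 6.94 TPM), Lat2 (122 ± 6.85 TPM), Lcp2 (114 ± 1.69 TPM) and Lat (84.5 ± 6.29 TPM) act below the kinases. The SLAM adaptors were Sh2d1a, the protein SAP, at 46.9 ± 3.84 TPM and Sh2d1b1, the protein EAT-2, at 29.99 ± 1.54 TPM, while Sh2d1b2 averaged 0.653 ± 0.479 TPM. Plcg1 had 11.7 ± 0.377 TPM.

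Inhibitory receptors and checkpoints were detected throughout but ranged widely. All 15 members in the table reached 1 CPM, 13 reached 10 CPM and 3 reached 100 CPM in every library, with a median of 47.8 TPM. Vsir, which encodes the checkpoint ligand and receptor VISTA of myeloid and lymphoid cells, stood at 163 ± 2.88 TPM. Lilrb4a, a myeloid inhibitory receptor, stood at 171.5 ± 4.43 TPM, and its 50-base stretches all occurred in transcripts of the annotated gene Gm49339. Among receptors of NK and T cells, the nectin-binding Tigit had 65.6 ± 4.74 TPM, Cd96 52.1 ± 0.897 TPM, Lag3 39.9 ± 1.69 TPM and Havcr2, the receptor TIM-3, 21.0 ± 1.44 TPM. Pdcd1, the receptor PD-1, had 8.00, 5.62 and 5.77 CPM, or 6.92 ± 1.40 TPM, with replicate 1 the high one. Ctla4 had 4.38, 2.65 and 3.01 CPM, or 3.58 ± 0.963 TPM, again highest in replicate 1.

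Of the remaining inhibitory genes, Cd300a (62.1 ± 2.55 TPM), Pilra (59.2 ± 1.96 TPM), Ceacam1 (50.5 ± 0.259 TPM) and Btla (47.8 ± 1.68 TPM) lay close together, and Lair1 (17.6 ± 1.03 TPM) and Cd200r1 (15.4 ± 2.07 TPM) lay lower. Cish, the cytokine-induced inhibitor of interleukin 15 signalling, had 12.4 ± 1.75 TPM.

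Of the NK lists, the cytotoxic granule genes had the highest summed TPM. Of 22 genes 18 were detected, 13 reached 100 CPM in every library and 4 had no count, and together they stood at 9107 ± 7.59 TPM, with a median of 109 TPM. Gzma reached 4018 ± 45.7 TPM and held 88.6 ± 0.192% of the TPM of the granzymes. Next to Gzma and Gzmb, the granzymes Gzmm (20.1 ± 3.60 TPM), Gzmk (6.40 ± 0.670 TPM) and Gzmc (4.55 ± 2.09 TPM) were low, and Gzmd, Gzme, Gzmf and Gzmg had no count in any library. Nkg7, a granule membrane protein of cytotoxic lymphocytes, had 719.6, 696.5 and 716 CPM, or 1669 ± 25.7 TPM (rank 78).

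Srgn, the proteoglycan serglycin that packs granule proteases, stood at 514 ± 12.5 TPM, Ctsw, a cathepsin of cytotoxic cells, at 494 ± 19.2 TPM and Lamp1, a lysosomal membrane protein, at 450.3 ± 12.2 TPM. Srgn and Lamp1 are expressed by many leukocytes. Cst7, the cystatin F that restrains cathepsins, had 191 ± 5.59 TPM, and Ctsc, which activates granzymes, 165 ± 2.87 TPM. The granzyme inhibitors Serpinb9 and Serpinb6b stood at 138 ± 5.67 TPM and 132 ± 1.90 TPM. The release machinery was lower: Stxbp2 had 87.2 ± 2.65 TPM, Rab27a 75.5 ± 1.53 TPM, Unc13d 75.5 ± 0.417 TPM and Stx11 34.3 ± 0.974 TPM. Rab27a and Unc13d could not be told apart by level.

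Among cytokines, chemokines and death ligands a single chemokine dominated. Ccl5, which attracts T cells and monocytes (gene 20304, chromosome 11, 83525778 to 83530518), had 1653, 1581 and 1564.5 CPM, or 6217 ± 161 TPM. Of 17 genes 14 were detected and 3 reached 100 CPM in every library, with a median of 32.6 TPM. Xcl1, the chemokine that draws cross-presenting dendritic cells, stood at 296 ± 6.39 TPM, Ccl4 at 173 ± 9.70 TPM and Ccl3 at 152 ± 15.5 TPM. Ltb, the membrane lymphotoxin shared with B and T cells, had 379 ± 23.0 TPM and Tgfb1, made by many leukocytes, 359.8 ± 1.56 TPM.

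Ifng, interferon gamma, had 23.8, 25.7 and 22.8 CPM, or 41.3 ± 2.65 TPM (rank 3634). Its level lay far below those of the stored effectors Gzma and Prf1, and no library stood apart. The death ligand Fasl stood at 57.5 ± 2.21 TPM and Tnfsf10, the ligand TRAIL, at 13.0 ± 0.594 TPM. Tnf had 5.63, 6.94 and 5.58 CPM, or 7.64 ± 0.990 TPM, and Csf2 4.64 ± 1.63 TPM. Flt3l, a growth factor of dendritic cells, had 32.6 ± 2.09 TPM, Osm 22.24 ± 1.69 TPM and Lta 10.2 ± 3.17 TPM. Il10 (0.598 ± 0.408 TPM), Areg (0.325 ± 0.172 TPM) and Il2 (0.156 ± 0.174 TPM) stayed below the detection limit.

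The lineage transcription factors of NK cells were present at moderate levels. Of 22 genes measured 21 were detected, 19 reached 10 CPM and 12 reached 100 CPM in every library, with a median of 40.5 TPM. Klf2, a regulator of lymphocyte trafficking and quiescence, led at 597 ± 17.5 TPM, then Ets1 at 361 ± 8.14 TPM and Id2, the inhibitor of E proteins needed by innate lymphocytes, at 330.3 ± 3.36 TPM. Irf8 (265 ± 4.99 TPM) and Tbx21 (264 ± 10.0 TPM) lay at the same level within their spread. Ikzf1 (254 ± 5.77 TPM), Ikzf3 (223 ± 6.15 TPM) and Tcf7 (198 ± 5.57 TPM) followed, all of which B or T cells express too. For Klf2, Ets1, Irf8 and the rest of this list as well, the cells that made the transcripts were not measured.

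Below Eomes stood Runx3 at 112 ± 3.00 TPM, Nfil3, which NK progenitors need, at 46.2 ± 1.83 TPM, and Zeb2, a factor of terminal maturation, at 34.8 ± 0.882 TPM. Gata3 had 30.9 ± 1.85 TPM, Foxo1 30.2 ± 1.96 TPM, Prdm1, the repressor Blimp-1, 20.1 ± 0.466 TPM and Tox 19.6 ± 2.73 TPM. Lower still were Bach2 at 12 ± 0.608 TPM, the T cell factor Bcl11b at 8.47 ± 0.563 TPM, Ikzf2 at 6.27 ± 0.339 TPM and Zbtb16 at 4.35 ± 1.01 TPM. Rora was low as well, at 0.554 ± 0.260 TPM.

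Maturation and homing genes were detected in full, 22 of 22 at 10 CPM or more and 15 at 100 CPM or more in every library, with a median of 116 TPM. The integrin chains Itgb2 (982 ± 14.5 TPM) and Itgal (509.7 ± 6.68 TPM), which form LFA-1, and the leukocyte surface protein Ly6c2 (953 ± 19.9 TPM) led. Spn, the sialoglycoprotein CD43, stood at 418 ± 7.82 TPM and Itgam, CD11b, at 313 ± 7.34 TPM. Itgam marks mature NK cells and myeloid cells alike, and 91.8% of its 50-base stretches occurred in another annotated transcript. Cd27, a marker of the less mature stages, had 88.9 ± 3.75 TPM and S1pr5, the lipid receptor with which mature NK cells leave tissues, 151 ± 4.06 TPM.

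The chemokine receptors ran from Cxcr4 at 217 ± 5.44 TPM and the monocyte receptor Ccr2 at 141 ± 4.8 TPM through Cxcr3 at 77.5 ± 3.86 TPM, Cx3cr1 at 52.2 ± 0.355 TPM and Ccr7 at 40.5 ± 2.57 TPM to Cxcr6 at 26.2 ± 2.19 TPM. Itga2, the integrin chain CD49b recognised by the DX5 antibody, had 105, 109.9 and 100.3 CPM, or 30.6 ± 1.41 TPM. Cd69, an early activation and retention marker, had 32.4 ± 2.66 TPM. Genes of type 1 innate lymphoid cells (ILC1) and tissue residency were all detected, 12 of 12 in the table, with a median of 16.8 TPM. None reached 100 CPM in every library, a level that 7.86% of all genes in the table reached. Tmem176b (93.3 ± 3.50 TPM), Tmem176a (70.1 ± 0.832 TPM), Il21r (65.8 ± 3.43 TPM) and Il7r (38.6 ± 1.42 TPM) led this list, and Gpr183 (18.2 ± 1.58 TPM) and Itgae (12.05 ± 1.97 TPM) lay below. Itga1, the integrin chain CD49a that marks ILC1, had 16.4, 14.9 and 16.6 CPM, or 3.01 ± 0.169 TPM, and Inpp4b 3.96 ± 0.327 TPM. Per length, Itga2 and Eomes stood above Itga1 in every library, but Tmem176b, Tmem176a, Il21r and Il7r stood above Itga2 in every library. Which cells made these transcripts was not measured.

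Cytokine receptors and their kinases were detected in full, 19 of 19 at 10 CPM or more and 13 at 100 CPM or more in every library, with a median of 82.3 TPM. Il2rb, the beta chain with which NK cells receive interleukin 15, had 1459, 1439 and 1460.3 CPM, or 701 ± 4.98 TPM (rank 180). Its partners Il2rg and Jak1 stood at 397 ± 11.8 TPM and 487 ± 5.29 TPM, whereas Il15ra (10.0 ± 0.696 TPM) and Il2ra, the high-affinity interleukin 2 receptor chain (4.6 ± 0.185 TPM), were low. The interleukin 18 receptor chains Il18r1 and Il18rap lay close together at 123.5 ± 3.53 TPM and 111 ± 6.87 TPM. Ifngr1 had 502 ± 11.6 TPM, Il10ra 185 ± 6.37 TPM and Tgfbr2, which receives TGF-beta, 70.3 ± 3.09 TPM. The remaining members lay between 29.4 ± 2.10 TPM (Tgfbr1) and 87.6 ± 3.05 TPM (Tyk2).

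The genes that the study's treatments act on were present in the IgG libraries at low to moderate levels. IL-35 pairs the subunits Ebi3 and Il12a and signals through gp130, encoded by Il6st, and the interleukin 12 receptor chain Il12rb2. Ebi3 had 11.5, 8.01 and 10.6 CPM, or 18.0 ± 3.23 TPM, with replicate 2 the low one. Il12a had 2.22, 2.59 and 2.94 CPM, or 3.90 ± 0.554 TPM. Both subunits were thus above the detection limit in every library, at a low level.

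On the receptor side, Il12rb2 had 89.6, 108 and 98.7 CPM, or 53.8 ± 5.12 TPM, and Il6st 66.7, 65.3 and 67.6 CPM, or 12.5 ± 0.211 TPM. Il12rb1 stood at 25 ± 1.55 TPM and Il27ra at 59.8 ± 2.10 TPM. The signal transducers Stat4 (125 ± 2.72 TPM) and Stat3 (112 ± 2.74 TPM) lay above the receptors. Il27 (4.68 ± 0.823 TPM) and Il12b (1.04 ± 0.117 TPM) were low, Il23a had 1 count over the 3 libraries and Il23r none. Of 13 genes of this list 10 were detected and 3 reached 100 CPM in every library, with a median of 18.0 TPM. Ebi3 and the interleukin 12 and 27 subunits are known products of myeloid and B cells, and the library as a whole does not say which cells made them.

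STING is the adaptor that cGAMP binds after the sensor cGAS has made it from cytosolic DNA. Sting1, listed under its older symbol Tmem173, had 136, 114 and 126 CPM, or 112 ± 9.53 TPM, with replicate 2 the low one. Cgas had 23.6, 20.3 and 22.9 CPM, or 11.3 ± 0.839 TPM. Of 14 pathway genes 13 were detected, 12 reached 10 CPM and 3 reached 100 CPM in every library, with a median of 42.0 TPM. The kinase genes Tbk1 (50.2 ± 0.870 TPM) and Ikbke (33.8 ± 1.88 TPM) and the factors Irf3 (62.6 ± 5.49 TPM), Irf7 (69.3 ± 3.35 TPM), Rela (117 ± 2.52 TPM) and Nfkb1 (172 ± 3.44 TPM) act below STING. Trex1 (76.5 ± 6.02 TPM), which degrades cytosolic DNA, and Enpp1 (9.54 ± 1.09 TPM), which degrades cGAMP outside cells, limit the pathway, though most 50-base stretches of Trex1 occurred in other transcripts too. The cGAMP carriers Slc19a1 and Lrrc8a had 7.12 ± 1.28 TPM and 15 ± 0.516 TPM, the interferon target Cxcl10 had 14.7 ± 1.86 TPM, and Ifnb1, interferon beta, had no count in any library.

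Cell cycle genes were present in every library, 15 of 15 at 10 CPM or more, with a median of 33.7 TPM. Mki67, the proliferation antigen Ki-67, had 166, 164 and 161 CPM, or 33.7 ± 0.426 TPM. Pcna, the sliding clamp of DNA replication, stood at 223 ± 3.82 TPM, Top2a at 56.1 ± 1.94 TPM, Rrm2 at 42.9 ± 3.84 TPM and the helicase subunits Mcm2, Mcm3, Mcm5 and Mcm6 ran between 48.0 ± 3.26 TPM and 64.7 ± 2.42 TPM. The remaining members were lower: Cdc20 had 23.8 ± 1.37 TPM, Ccna2 20.9 ± 1.49 TPM, Aurkb 18.6 ± 1.84 TPM and Ccnb1 12.9 ± 1.72 TPM. Birc5 had 10.2 ± 1.32 TPM, Tyms 9.09 ± 0.670 TPM and Cdk1 8.14 ± 0.216 TPM. Pcna and Ccnb1 shared 31.8% and 42.1% of their 50-base stretches with other genes, so their levels are uncertain. Which cells of the fraction carried these transcripts was not measured.

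Transcripts of other cell types were plentiful. By summed TPM the lists of immunoglobulin constant regions, neutrophils, dendritic cells and macrophages stood above the 2886 ± 9.70 TPM of the 7 NK markers, the plasma cell list was close to it at 2869 ± 9.36 TPM, and the T cell and B cell lists stood below at 1721 ± 13.3 TPM and 1589.8 ± 16.5 TPM. A share of RNA is not a share of cells: fewer cells of a type and less RNA per cell cannot be told apart in bulk libraries. The sum of a list also depends on which genes it holds, so it describes those genes and no cell number.

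Immunoglobulin constant regions took 1.85 ± 0.0272% of counts and stood at 37489 ± 665 TPM over 12 genes. Among heavy chains IgM, at 10008 ± 107 TPM, held 71.5 ± 0.160% of the TPM. Igha, the IgA constant region, with 2027 ± 64.0 TPM held 14.5 ± 0.291%, the 4 IgG genes held 13.2 ± 0.178% and Ighd, which naive B cells express beside IgM, with 117 ± 5.01 TPM held 0.839%. Within IgG the order was Ighg2c (984 ± 13.4 TPM), Ighg2b (529 ± 11.2 TPM), Ighg3 (241 ± 7.06 TPM) and Ighg1 (89.5 ± 1.55 TPM). Ighe, the IgE constant region, had 0.765, 2.40 and 1.6 CPM and missed the limit in replicate 1. Lambda constants Iglc1 (802 ± 26.3 TPM), Iglc2 (588 ± 19.7 TPM) and Iglc3 (384 ± 4.52 TPM) held 7.55 ± 0.0392% of light chain TPM, the rest being Igkc.

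The variable segments that B cells join into antibody genes took a further 0.774 ± 0.00655% of counts. Of 248 V, D and J segments listed, 229 had a count and 183 reached 1 CPM in every library. The 10 most abundant held 27.3 ± 0.146% of segment counts, led by Igkv5-39 (301.6 ± 7.78 CPM), Igkv4-57-1 (277.8 ± 11.5 CPM), Ighv1-84 (268 ± 22.9 CPM) and Iglv1 (223 ± 7.15 CPM). Reads were thus spread over many segments and no single segment dominated.

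B cell identity genes were all detected, 16 of 16, 15 of them at 10 CPM and 8 at 100 CPM or more in every library, with a median of 61.2 TPM. Cd79a, a signalling chain of the B cell receptor, had 283, 278.5 and 271 CPM, or 394 ± 7.76 TPM, and its partner Cd79b 274.5 ± 5.22 TPM. Ms4a1 (CD20) stood at 123 ± 4.42 TPM. Fcmr, the IgM Fc receptor (156 ± 7.68 TPM), the transcription factor Spib (92.5 ± 7.23 TPM), the inhibitory receptor Cd22 (74.1 ± 2.45 TPM), the kinase Blk (62.0 ± 0.464 TPM) and the complement receptor Cr2 (52.3 ± 0.706 TPM) followed. The lowest members were Vpreb3 (16.3 ± 3.21 TPM) and the B lineage factors Pax5 (14.1 ± 0.883 TPM) and Ebf1 (6.22 ± 0.297 TPM).

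Plasma cell genes were detected in full, 9 of 9, but unevenly, with a median of 25.2 TPM. Jchain, which joins IgM and IgA into polymers, had 1519, 1509 and 1512 CPM, or 2247 ± 1.52 TPM, and so ranked 51 by TPM. Mzb1 (221.5 ± 9.38 TPM) and Xbp1 (213 ± 8.80 TPM) serve antibody secretion, and Pou2af1 (106 ± 2.91 TPM) is a co-activator of B cells. The plasma cell surface genes Sdc1 (8.14 ± 0.303 TPM) and Tnfrsf17 (6.04 ± 0.582 TPM) were low, as were Derl3 (25.2 ± 1.59 TPM), Irf4 (24.0 ± 1.08 TPM) and Tnfrsf13b (17.5 ± 2.50 TPM).

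T cell genes were detected in full, 20 of 20, 15 of them at 10 CPM and 2 at 100 CPM in every library, with a median of 24.2 TPM. Of all genes in the table, 33.2% reached 10 CPM and 7.86% reached 100 CPM in every library. The constant regions of the T cell receptor led, Trbc1 at 497 ± 18.5 TPM, Trbc2 at 476 ± 16.1 TPM and Trac at 299 ± 13.4 TPM. Trbc1 and Trbc2 shared 61.1% and 44.0% of their 50-base stretches with other genes. The CD3 chains Cd3d, Cd3e and Cd3g summed to 228 ± 3.36 TPM, of which Cd3e had 54.0, 44.6 and 46.7 CPM, or 68.5 ± 6.76 TPM. Immature NK cells are known to carry some of these transcripts without a complete receptor, and the part of NK and T cells in them was not tested.

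Cd4 had 42.8, 44.6 and 43.1 CPM, or 28.9 ± 0.732 TPM, Cd8a 28.2 ± 2.68 TPM and Cd8b1 34.1 ± 3.10 TPM. Cd4 and Cd8a, which mark the helper and cytotoxic lineages, did not differ beyond their spread. The gamma delta constant region Trdc stood at 24.5 ± 0.861 TPM, and Trgc1, Trgc2 and Trgc4 had 6.08, 7.43 and 11.5 CPM on average, with no exon length to scale them. Foxp3, the factor of regulatory T cells, a known source of IL-35, had 5.21, 5.93 and 5.34 CPM, or 2.77 ± 0.201 TPM. Trat1 was the lowest at 1.09 ± 0.0800 TPM.

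Neutrophil genes were detected in full, 18 of 18, 16 at 10 CPM and 9 at 100 CPM or more in every library, with a sum of 13945 ± 304 TPM and a median of 186 TPM. S100a9, a calcium-binding alarmin (gene 20202, chromosome 3, 90692630 to 90695721), had 1357.5, 1306 and 1320.5 CPM, or 5262 ± 86.6 TPM (rank 16), and its partner S100a8 4012 ± 155 TPM (rank 22). The secondary granule genes Ngp (1442 ± 15.3 TPM), Lcn2 (769 ± 19.7 TPM), Camp (723 ± 34.1 TPM) and Ltf (399 ± 6.48 TPM) followed. Neutrophil precursors transcribe this granule set before they mature. The surface receptors Csf3r (335 ± 9.24 TPM) and Cxcr2 (84.0 ± 2.34 TPM) and the gelatinase Mmp9 (200.3 ± 8.01 TPM) lay below.

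Primary granule genes, which early neutrophil precursors transcribe, were present too: Prtn3 had 74.5 ± 6.36 TPM, Elane 55.1 ± 4.95 TPM, Mpo 43.7 ± 4.36 TPM and Ctsg 16.2 ± 0.791 TPM, together 189.5 ± 12.3 TPM. Ly6g, the surface antigen by which mouse neutrophils are usually sorted, was low at 12.7, 10.2 and 7.79 CPM, or 22.5 ± 5.35 TPM, and the 3 libraries differed more than for most members. The list summed to 5769, 5539.9 and 5581 CPM in replicates 1, 2 and 3, so replicate 1 stood above the others.

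Macrophage and monocyte genes were detected in full, 21 of 21, 19 at 10 CPM and 11 at 100 CPM or more in every library, with a sum of 8439.5 ± 121 TPM and a median of 82.8 TPM. Lyz2, the lysozyme of myeloid cells (gene 17105, chromosome 10, 117277541 to 117282272), had 2683, 2713 and 2734 CPM, or 4259 ± 54.0 TPM, and held 50.5 ± 0.119% of the list's TPM. Apoe, the apolipoprotein secreted by macrophages, stood at 1227 ± 17.1 TPM, and the complement chains C1qa, C1qc and C1qb at 558 ± 26.9 TPM, 458 ± 21.1 TPM and 232 ± 1.56 TPM. Chil3, a chitinase-like protein of monocytes and neutrophils, had 497 ± 11.6 TPM and Csf1r, the receptor on which macrophages depend, 373 ± 6.18 TPM.

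Cd68 (229 ± 4.77 TPM) and Adgre1, the antigen F4/80 (106.5 ± 2.63 TPM), lay lower. Genes that tumour macrophages are known for were present at 85.4 ± 2.18 TPM for Arg1, 82.8 ± 0.367 TPM for Mrc1 (CD206), 38.4 ± 2.92 TPM for Spp1 and 16.5 ± 1.06 TPM for Trem2. The lowest members were Vcan at 12 ± 0.169 TPM and Ms4a7 at 8.37 ± 2.18 TPM.

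The MHC class II genes gave most of the dendritic cell list. Cd74 (5889 ± 108 TPM), H2-Ab1 (2220 ± 65.6 TPM), H2-Aa (2038 ± 30.05 TPM) and H2-Eb1 (1320 ± 4.38 TPM) summed to 11468 ± 192 TPM, or 96.5 ± 0.0994% of it. B cells, macrophages and dendritic cells all express them. The other 12 genes summed to 413 ± 15.9 TPM, and Itgax (CD11c), which macrophages and NK cells also carry, made up 239 ± 4.49 TPM of this. The markers of dendritic cell subsets were low: Batf3 had 28.3 ± 7.16 TPM, Flt3 15.5 ± 1.14 TPM, Clec9a 7.55 ± 0.590 TPM, Xcr1 5.39 ± 0.604 TPM and the plasmacytoid genes Siglech and Ccr9 3.27 ± 0.693 TPM and 1.81 ± 0.482 TPM. All 16 genes of the list were detected, with a median of 25.6 TPM.

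Mast cell, basophil and eosinophil genes were partly present. Of 15 genes 11 were detected and 6 reached 10 CPM in every library, with a median of 8.49 TPM. The chymase Cma1 led at 183 ± 9.08 TPM, then the histamine-forming enzyme Hdc at 70.8 ± 3.19 TPM, the eosinophil granule protein Prg2 at 65.2 ± 6.45 TPM, the basophil proteases Prss34 at 53.3 ± 2.66 TPM and Mcpt8 at 40.2 ± 1.63 TPM, and the eosinophil chemokine receptor Ccr3 at 41.2 ± 2.64 TPM. Cpa3 (8.56 ± 2.97 TPM), Epx (8.49 ± 0.765 TPM), Siglecf (7.53 ± 0.699 TPM), Fcer1a (6.46 ± 0.353 TPM) and Gata2 (5.28 ± 1.26 TPM) were low. The mast cell proteases Tpsb2 (0.0898 ± 0.156 TPM) and Mcpt4 (0.364 ± 0.239 TPM), with Ms4a2 (0.697 ± 0.120 TPM) and Il4 (0.826 ± 0.294 TPM), stayed below the detection limit. Cma1 thus stood apart from the other mast cell genes.

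Red cell and platelet transcripts came mainly from alpha globin, with Hba-a2 at 726.6 ± 9.22 TPM and Hba-a1 at 530.0 ± 18.3 TPM. The split and the sum of these near-identical genes are uncertain. Of the beta globins, Hbb-bs had 19.7, 27.1 and 31.5 CPM and Hbb-b1 105, 112 and 121 CPM. Of 13 genes measured 12 were detected, with a median of 5.94 TPM. The haem synthesis gene Alas2 (8.35 ± 0.806 TPM), the anion carrier Slc4a1 (4.68 ± 1.43 TPM) and the platelet genes Pf4 (7.37 ± 0.292 TPM) and Gp1bb (7.20 ± 1.07 TPM) were low, and Gp9 (1.09 ± 0.523 TPM) did not reach 1 CPM in any library.

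Stromal, epithelial and pancreatic lists had median levels near the detection limit, from 0.736 CPM (acinar and islet) to 1.65 CPM (tumour and ductal epithelium). Their counts of detected genes stand beside 45.4% of all genes in the table. Of 12 fibroblast genes 3 were detected, 7 were below the limit and 2, Pdgfra and Lum, had no count, and the list summed to 12.6 ± 1.93 CPM. Its highest members were the contractile genes Tagln and Acta2 at 5.18 ± 1.56 TPM and 2.75 ± 1.22 TPM, while the collagens Col1a1 (0.380 ± 0.140 TPM) and Col3a1 (0.150 ± 0.170 TPM) were near 0. Of 11 endothelial genes 6 were detected and Tek and Cldn5 had no count. Pecam1 alone, which leukocytes also express, gave 57.2 ± 1.16 of the 64.9 ± 0.412 TPM of that list.

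Of 14 genes of tumour and ductal epithelium 7 were detected and none reached 10 CPM in every library. Of all genes in the table, 45.4% were detected and 33.2% reached 10 CPM in every library. The epithelial adhesion genes Epcam and Cdh1 had 6.64 ± 0.874 TPM and 2.98 ± 0.613 TPM, the keratins Krt19, Krt8 and Krt7 had 4.57 ± 1.18 TPM, 4.27 ± 0.0219 TPM and 1.13 ± 0.299 TPM, and Muc1 had 2.97 ± 0.386 TPM. The whole list summed to 34.3 ± 2.7 TPM with a median of 2.22 TPM. Of 18 acinar and islet genes 7 were detected and 1 reached 10 CPM in every library, led by the elastase Cela1 at 14.2 ± 0.395 TPM. The amylase Amy2a5 averaged 10.8 ± 1.74 CPM, or 5.98 ± 0.952 TPM. The hormone genes Ins1, Ins2 and Sst had no count, and Gcg had counts in replicate 3 only.

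**Figure D3:**
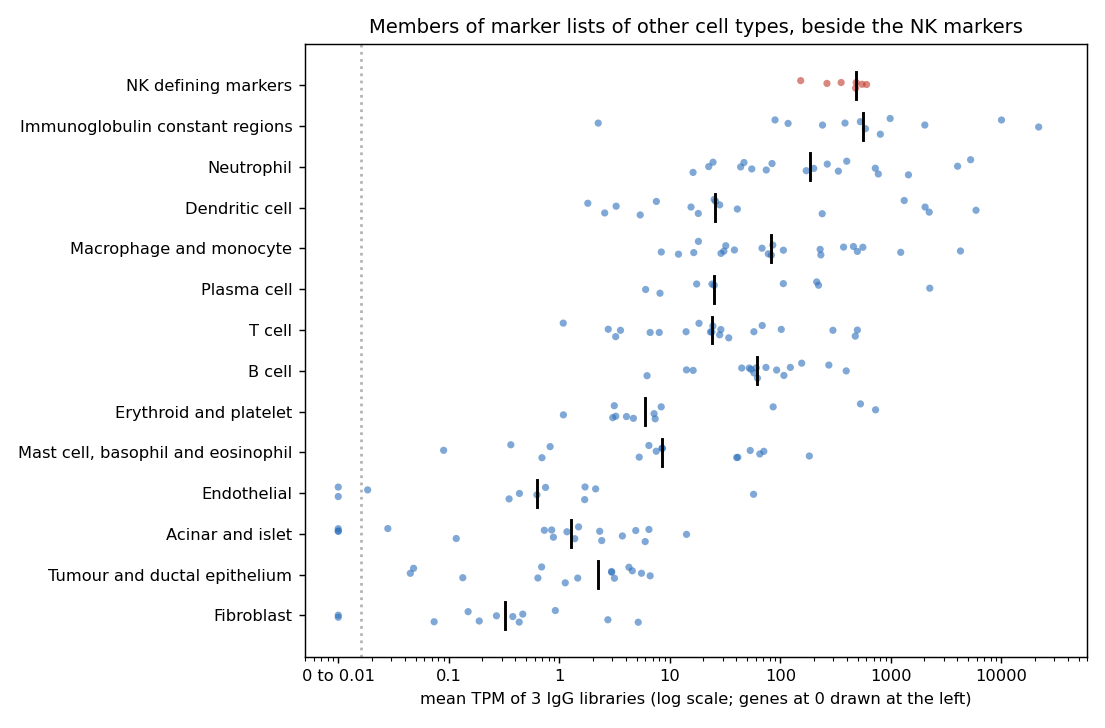
Mean TPM over the 3 IgG libraries (x axis, log scale, with genes at 0 drawn at the left) of the members of the NK marker list and of 13 lists of other cell types (y axis), where each point is a gene and each black bar the median of its list. The NK median of 479.6 TPM lies beside that of immunoglobulin constant regions, above those of neutrophil, macrophage, B cell and T cell genes, while fibroblast, endothelial, epithelial and acinar medians lie near or below 2.22 TPM.

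The 3 libraries lay close together. Counts of each pair differed by more than counting noise, with a chi-square per degree of freedom of 3.35 for replicates 1 and 2, 3.23 for replicates 1 and 3 and 3.65 for replicates 2 and 3, against 1 for counting noise alone, so no library was taken as a second deposit of another. Repeat preparations of a single sample could also exceed 1, and the values do not show that the libraries are independent. The median coefficient of variation (CV, the SD as a percentage of the mean) was 19.4% for the 3535 genes with a mean of 1 to 10 CPM and 6.49% for the 7060 genes of 10 to 100 CPM. It was 2.93% for the 2142 genes of 100 to 1000 CPM and 1.55% for the 94 genes above. The CV that counting error alone implies, 1 over the square root of the mean count, had medians of 13.2%, 4.35%, 1.96% and 0.673% in these classes. It is not the same statistic as a median of CVs over 3 libraries, so the 2 sets compare only roughly. Of the 311 listed genes whose mean reached 10 CPM, 280 had a CV under 10%.

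The widest listed genes at that level were Slc4a1, the anion carrier of red cells, with a CV of 30.8%, Batf3 with 25.1% and Ly6g with 24.1%, all near 10 CPM. The narrowest were Tgfb1 with 0.127% and Prf1 with 0.153%.

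**Figure D4:**
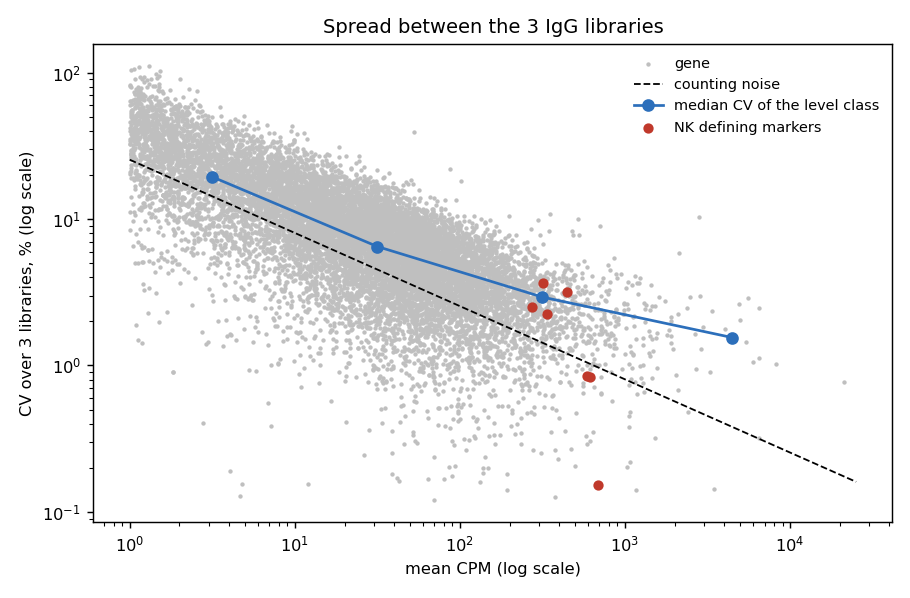
CV over the 3 IgG libraries in % (y axis, log scale) against mean CPM (x axis, log scale) for each gene whose mean reached 1 CPM (grey points), with the CV of counting noise (dashed line), the median CV of each class of level (blue) and the 7 NK markers (red). The blue medians fall with level, from 19.4% to 1.55%, and lie above the dashed line, and the 7 NK markers have CVs under 4%. Genes with a CV under 0.1% are drawn at 0.1%.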

How the data were processed

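RNA was extracted with the RNeasy Mini Kit and 1 µg per sample went into NEBNext Ultra libraries, per the labels' protocols. The authors deposited raw read counts per gene, and the submitters' processing notes name STAR 2.7.7a, SAMtools 1.15, featureCounts and the build mm10. The annotation, the strand setting and the handling of multimapping reads are not given in the sources used here, so overlapping and antisense genes cannot be told apart.

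The columns of the 3 IgG libraries were read from the deposited count table and mapped by title. Counts were divided by each library's total to give CPM. No symbol was given for 1049 IDs (0.264% of counts). Exon lengths from GENCODE M21 were matched to 25434 genes, 21573 by Entrez ID and 3861 by symbol, and gave TPM. The 1745 genes with no length held 0.767% of counts. Coordinates came from RefSeq for 25275 IDs. Shared sequence was the share of 50-base stretches of a transcript found, on either strand, in transcripts of other annotated genes. Gene models that overlap at the same place were not set aside, so a shared stretch need not lie at a different locus. Levels of further named genes are uncertain for the same reason. Examples are Flt3l (81.2% shared), Mzb1 (75.7%), Lrrc8a (66.8%), Lat2 (51.9%), Sh2d1a (46.7%) and Il2rg (42.0%). Coding sequences were aligned with MAFFT 7.526. Means, SDs and ranks were computed in Python 3.11.15 with pandas 2.3.3. Only the chi-square per degree of freedom and the CV were checked on simulated data. No comparison between groups and no test was made. Counting limits cover counting error only.

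The members and the 29 gene lists (424 genes, 420 in the table) were chosen with earlier results of these data known. Named were the 7 NK markers, the 30 genes of highest mean CPM, the members of lists of up to 15 genes above 1 CPM, in longer lists up to 8 of highest mean CPM with those nearest 1 CPM or at 0, and the targets of the treatments. Further members were named for their known roles after values were seen, and 6 listed genes are not reported here. Alternatives were edgeR 4.0.16 (TMM) and DESeq2 1.42.0 size factors in R 4.3.3, a reduced denominator, a filter at 10 counts, other limits, ranks by TPM and leaving out each library.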

Additional observations from a re-analysis of the deposited data

How the results depend on the processing

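Scaling by TMM or by DESeq2 size factors, and leaving out genes under 10 counts, kept the 6 summary values (genes detected and the CPM sums of the NK, B cell, neutrophil, macrophage and T cell lists) within 1 SD or 1.5 times. With library totals taken without immunoglobulin, mitochondrial and ribosomal protein genes, the sums became 3823 CPM for the NK markers, 2111 CPM for B cells, 6605 CPM for neutrophils, 7980 CPM for macrophages and 959 CPM for T cells. This denominator is smaller by construction, and it left 12504 genes at 1 CPM, against 12348. A limit of 0.5 CPM gave 13026 genes and a limit of 5 CPM 10333. Without 1 library the counts of genes ran from 12484 to 12516 and the sums from 3250.04 to 3269.62 CPM (NK markers), 1790.15 to 1811.41 CPM (B cells), 5560.44 to 5674.77 CPM (neutrophils), 6769.95 to 6833.95 CPM (macrophages) and 815 to 822 CPM (T cells). Ranks by TPM differed from ranks by CPM for 6 of the 7 NK markers, since TPM divides by length, and Tbx21 held its place within the spread. When replicate 1 or replicate 2 was left out, the CPM rank of Prf1 went from 167 to 164, beyond its spread between libraries. The CPM ranks of the other NK markers stayed within their spread whichever library was left out. No paired analysis was possible because no groups were compared and the values come from no test. Low genes are limited by depth: a gene of 1 to 10 CPM had a median CV of 19.4%, and the labels do not say how far the libraries are separate samples.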

Other observations

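Transcripts of Y-linked genes were present in every IgG library. Ddx3y, an RNA helicase, had 90.2, 90.7 and 87.3 CPM, Eif2s3y, a translation factor, averaged 52.2 ± 2.52 CPM, the histone demethylase Kdm5d 37.8 ± 2.77 CPM and Uty 21.2 ± 1.71 CPM. Xist, the RNA of the inactive X chromosome, had 0.278 ± 0.142 CPM, below the detection limit of 1 CPM. The labels do not give the sex of the mice or of the tumour line.

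The pancreatic amylase copies Amy2a2, Amy2a3, Amy2a4 and Amy2a5 had identical counts in replicate 1 (179 each) and in replicate 2 (142 each), and 177 to 183 counts in replicate 3. Of their 50-base stretches, 57.2% for Amy2a5 and 100% for the others occurred in transcripts of other genes. Whether reads were counted at more than 1 copy was not tested. The ribosomal RNA precursor Rn45s had 3059, 2486 and 2817 CPM, with replicate 2 the low one, and Rn18s averaged 101 ± 18.4 CPM.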
